A study of Mus musculus with 9 samples.

Results

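Rod and cone photoreceptor genes were followed across 9 RNA libraries of mouse retinal pigment epithelium and choroid. The set was a fixed list of 36 gene symbols, all of which were present in each count table among 24421 symbols. Of the 36, 30 had enough counts to enter the test among 14054 genes, and 6 did not. The tissue came from laser-induced choroidal neovascularization, in which a laser burn breaks the Bruch membrane and choroidal vessels grow through it. Male mice aged 8 weeks were burned and then received 5 µg of a reagent into the vitreous, and the lesion with a margin of pigment epithelium and choroid was dissected by laser capture. All groups carried the burn and the injection. The control group received Fc, the constant fragment of an antibody (3 libraries). Its count tables carry headings of knockout controls, so this group rests on the sample titles. Another group received ABTAA (3 libraries), a Tie2-activating antibody against angiopoietin 2. The last group received VEGF Trap (3 libraries), which captures VEGF as a decoy of its receptor. Strain, time after the burn and number of animals per library are not stated in the labels, so the p-values describe only spread among libraries, which may be technical.

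Photoreceptors are the light-sensing neurons of the outer retina, and their outer segments touch the pigment epithelium, which takes up shed discs and recycles the chromophore. In the dark a cyclic nucleotide-gated channel keeps the cell depolarized. Light activates a photopigment, which activates the G protein transducin and through it a phosphodiesterase that lowers cyclic GMP and closes the channel. Rods and cones use separate versions of most of these proteins. The labels name pigment epithelium and choroid as the tissue dissected, and not neural retina. Some genes of the list are also made by other cell types, and how much of their RNA came from outer retina was not tested.

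The captured tissue carried the marker RNAs of its labelled cell types, and the listed photoreceptor genes held a small share of the counts. Total counts were 6335805 to 14439835 per library, and 3 counts correspond to 0.208 to 0.474 CPM, the usual unit of counts scaled to library size. All values are CPM with TMM scaling. The 16 pigment epithelium markers summed to 1996 to 3289 CPM, or 0.2% to 0.33% of all counts. The 14 endothelial markers summed to 1963 to 3108 CPM, or 0.2% to 0.31%. These are shares of listed genes, and the whole RNA of a cell type was not measured. The 36 photoreceptor genes summed to 846.5 CPM in VEGF Trap 2, the lowest library, and to 1240.0 CPM in VEGF Trap 1, the highest, which was 0.0841% and 0.117% of all counts. Gnb1, a G protein beta subunit that many other cell types make, stood at 602.8 to 766.3 CPM and made up 61.8% to 71.5% of the counts of the 36 genes. All counts of Gnb1 are multiples of 3, and with the counts of each gene divided by their common divisor its share was 37.2% to 46.7%.

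Leaving out Gnb1, Gngt2, which blood cells also express, and Abca4, which pigment epithelium also expresses, gave a sum for 33 genes that differed between libraries of the same group. It was 206.7, 263.9 and 224.0 CPM in Fc 1, 2 and 3, 188.9, 274.8 and 181.5 in ABTAA 1, 2 and 3, and 364.2, 156.5 and 169.7 in VEGF Trap 1, 2 and 3. The VEGF Trap group therefore held both the highest library and the lowest 2, and the 3 groups overlapped. The group means were 231.5 ± 29.3 CPM in Fc, 215.1 ± 51.9 in ABTAA and 230.1 ± 116 in VEGF Trap (SD, n = 3 each), and the VEGF Trap mean was 163.1 CPM without VEGF Trap 1. Slc24a1 was part of the sum of the 33 genes, at 82.2 CPM in VEGF Trap 1 and 62.1 CPM in VEGF Trap 2. In these pooled tissues, fewer photoreceptor fragments and less RNA per cell cannot be told apart.

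The same division into high and low libraries ran through single genes. For each of the 30 tested genes, log2 CPM was taken relative to its own mean over the 9 libraries, with a prior count of 2. The median of these differences was 0.66 in VEGF Trap 1, 0.51 in ABTAA 2 and 0.37 in Fc 2. It was -0.47 in VEGF Trap 2, -0.34 in VEGF Trap 3, -0.25 in ABTAA 1 and -0.25 in ABTAA 3, while Fc 1 and Fc 3 lay at 0.01 and 0.10. Over all 14054 tested genes the same median lay between 0.00 and 0.02 in every library. VEGF Trap 1 was above the gene's own mean for 28 of the 30 genes and VEGF Trap 2 for 2 of them. The median SD between libraries of a group was 0.41 in Fc, 0.66 in ABTAA and 0.87 in VEGF Trap on the log2 scale, against 0.20, 0.23 and 0.23 over all tested genes. The photoreceptor genes were also lower, with a median of 3.00 CPM against 15.8 CPM, so their counting error is larger, and its part in the spread was not tested.

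**Figure D1:**
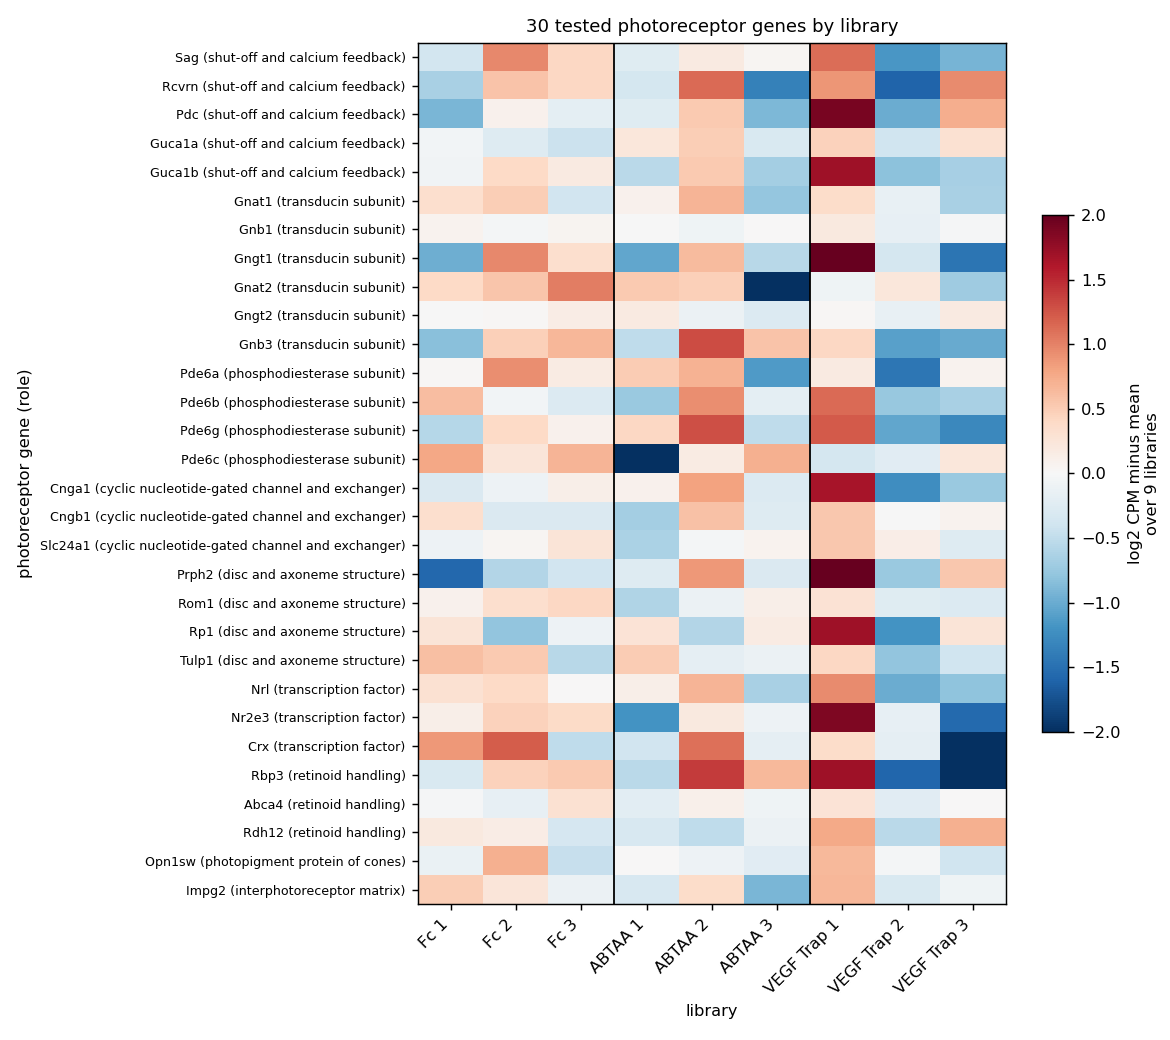
Each row is 1 of the 30 tested photoreceptor genes, ordered by role, and each column a library; color gives log2 CPM minus the gene's mean over the 9 libraries, with differences beyond 2 drawn at the end of the scale. VEGF Trap 1 is above the mean for 28 genes and VEGF Trap 2 for 2, while Gnb1, Gngt2 and Abca4 are close to their means in every library.

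Promoter sequences of 3 genes are shown because Gngt1 had the largest ratio of VEGF Trap 1 to the other libraries, described below, and because Sag and Rbp3 are the listed genes whose promoter held both motifs that were searched. The motifs were TAATCC, the core bound by the homeodomain factors CRX and OTX2, and TGCTGA, a core of the sites of the rod factor NRL, on either strand. RefSeq promoters of GRCm38.p6, running from 250 bases before to 50 bases after the start, were found for 26 of the 36 genes. TAATCC was in 9 of these 26 genes, or 34.6%, and in 8.14% of all 27025 genes with a promoter. TGCTGA was in 5 of the 26, or 19.2%, and in 21.7% of all genes. The 250 bases before the start follow, 5′ to 3′ on the strand of the gene, with the matches in capitals (GGATTA is TAATCC on the other strand, and TCAGCA is TGCTGA on the other strand). All 3 genes lie on the plus strand. The starts are those of RefSeq, which for Gngt1 lies inside the GENCODE gene, and the stretches are chr1:87803430-87803679 for Sag, chr14:33953753-33954002 for Rbp3 and chr6:3993758-3994007 for Gngt1.
Sag: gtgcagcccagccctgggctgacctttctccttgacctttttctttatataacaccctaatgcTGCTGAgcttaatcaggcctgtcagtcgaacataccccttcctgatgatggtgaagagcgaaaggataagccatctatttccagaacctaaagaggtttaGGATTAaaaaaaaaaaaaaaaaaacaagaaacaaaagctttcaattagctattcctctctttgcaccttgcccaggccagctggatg
Rbp3: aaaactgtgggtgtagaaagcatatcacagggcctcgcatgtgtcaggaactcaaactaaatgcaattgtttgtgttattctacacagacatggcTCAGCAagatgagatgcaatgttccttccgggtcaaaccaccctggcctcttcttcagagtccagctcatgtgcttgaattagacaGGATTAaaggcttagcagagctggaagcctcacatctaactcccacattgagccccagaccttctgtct
Gngt1: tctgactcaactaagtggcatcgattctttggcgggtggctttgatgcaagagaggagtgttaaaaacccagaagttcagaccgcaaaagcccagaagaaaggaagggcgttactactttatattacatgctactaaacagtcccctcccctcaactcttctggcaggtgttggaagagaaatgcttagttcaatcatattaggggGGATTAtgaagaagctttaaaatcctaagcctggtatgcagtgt
The TAATCC match of Sag begins 87 bases before the start, that of Rbp3 69 bases before it and that of Gngt1 44 bases before it. A match describes these letters only, and no binding was measured here.

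The transducin genes differed in how far they varied between libraries. Gngt1, the gamma subunit of rod transducin (chromosome 6, 3993792 to 3997436, GRCm38), stood at 0.65, 3.06 and 1.91 CPM in Fc 1, 2 and 3, at 0.62, 2.38 and 0.94 in ABTAA 1, 2 and 3, and at 8.79, 1.12 and 0.42 in VEGF Trap 1, 2 and 3. The highest library was VEGF Trap 1 and the lowest VEGF Trap 3, so the VEGF Trap group spanned both other groups. Gnat1, the alpha subunit of rod transducin, stood at 17.4, 19.4 and 10.5 CPM in Fc, 14.7, 22.3 and 7.98 in ABTAA and 17.8, 12.4 and 8.73 in VEGF Trap, in the same order of libraries. Its highest library was ABTAA 2, and the groups overlapped. Gnb1 stood at 709.1, 652.0 and 694.8 CPM in Fc, 669.9, 635.5 and 674.4 in ABTAA and 766.3, 602.8 and 658.0 in VEGF Trap. The gamma subunit of cone transducin, Gngt2, stood at 54.9, 55.8 and 61.2 CPM in Fc, 62.3, 50.8 and 45.7 in ABTAA and 56.1, 49.7 and 62.2 in VEGF Trap. Gnb1 was also highest in VEGF Trap 1 and lowest in VEGF Trap 2, over a much narrower range than Gngt1, and the highest and lowest libraries of Gngt2 were ABTAA 1 and ABTAA 3. Gnb3, the beta subunit of cones that bipolar cells also use, ran from 0.91 CPM in VEGF Trap 2 to 5.55 CPM in ABTAA 2. The cone alpha subunit Gnat2 had 101 counts in all libraries together and was at 0 in ABTAA 3.

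The phosphodiesterase subunits of rods were measurable in each library. Pde6g, the inhibitory gamma subunit (chromosome 11, 120447605 to 120453500), stood at 8.41, 16.6 and 13.3 CPM in Fc, 16.7, 30.9 and 8.76 in ABTAA and 29.5, 5.99 and 4.99 in VEGF Trap. ABTAA 2 and VEGF Trap 1 were the highest libraries, and VEGF Trap 2 and 3 the lowest. The catalytic alpha subunit Pde6a stood at 12.1, 22.7 and 13.3 CPM in Fc, 17.04, 19.3 and 5.32 in ABTAA and 13.4, 4.25 and 12.5 in VEGF Trap. Here Fc 2 was the highest library and VEGF Trap 1 lay in the middle of the others. The catalytic beta subunit Pde6b stood at 4.30, 2.63 and 2.21 CPM in Fc, 1.55, 5.36 and 2.35 in ABTAA and 6.22, 1.53 and 1.66 in VEGF Trap. Of the cone subunits, Pde6c had 76 counts and Pde6h 44 counts over the 9 libraries.

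Among the channel genes, Cnga1, the alpha subunit of the rod channel, stood at 1.40, 1.61 and 1.91 CPM in Fc, 1.86, 3.17 and 1.41 in ABTAA and 5.89, 0.63 and 0.97 in VEGF Trap. Its partner Cngb1 ran from 1.24 CPM in ABTAA 1 to 3.27 CPM in ABTAA 2. Slc24a1, the sodium, calcium and potassium exchanger of rods, was at a far higher level than the channel it works beside. It stood at 52.6, 58.2 and 67.4 CPM in Fc, 36.4, 54.7 and 59.3 in ABTAA and 82.2, 62.1 and 47.0 in VEGF Trap. VEGF Trap 1 was also highest for Slc24a1, but by 1.22 times the next library, against 1.86 times for Cnga1. The kit reads transcript ends, so these CPM were not divided by length, and how well the end of each gene is read was not measured. The cone channel genes Cnga3 and Cngb3 had 13 and 5 counts in total.

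Of the genes that shut the response off or set its calcium feedback, Sag, the rod arrestin (chromosome 1, 87803680 to 87845158), stood at 11.02, 27.8 and 19.0 CPM in Fc, 12.0, 16.2 and 14.7 in ABTAA and 31.01, 6.27 and 7.35 in VEGF Trap. The highest library was VEGF Trap 1, and VEGF Trap 2 and 3 were below every Fc and ABTAA library. Pdc, phosducin, which binds the transducin beta and gamma subunits (chromosome 1, 150319417 to 150333906), stood at 2.80, 5.77 and 4.73 CPM in Fc, 4.54, 7.93 and 2.82 in ABTAA and 20.7, 2.65 and 9.15 in VEGF Trap. For Pdc, VEGF Trap 3 was above the other 7 libraries apart from VEGF Trap 1, unlike for Sag. The guanylate cyclase activators Guca1a and Guca1b are neighbors on chromosome 17 and differed in pattern. Guca1a stood at 15.6, 13.6 and 12.0 CPM in Fc, 19.0, 23.0 and 13.1 in ABTAA and 22.5, 12.3 and 20.1 in VEGF Trap. Guca1b stood at 1.78, 2.55 and 2.14 CPM in Fc, 1.24, 2.78 and 1.10 in ABTAA and 6.47, 0.98 and 1.11 in VEGF Trap. Recoverin, Rcvrn, a calcium sensor that acts on the photopigment kinase, ran from 0.63 CPM in VEGF Trap 2 to 5.26 CPM in ABTAA 2, and VEGF Trap 3 was at 4.58 CPM. The cone arrestin Arr3 had 8 counts and was at 0 in 7 libraries.

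The disc rim protein Prph2, peripherin 2 (chromosome 17, 46910459 to 46924933), had the widest gap between VEGF Trap 1 and the next library of the 30 tested genes, at 3.07 times. It stood at 0.47, 1.10 and 1.30 CPM in Fc, 1.45, 3.37 and 1.41 in ABTAA and 10.4, 0.98 and 2.63 in VEGF Trap. The 3 ABTAA libraries were all above the 3 Fc libraries, while VEGF Trap 2 lay among the Fc libraries. Its paralog Rom1, which pairs with it in the disc rim, did not follow it, at 24.8, 29.4 and 30.9 CPM in Fc, 15.2, 21.5 and 25.3 in ABTAA and 28.4, 19.6 and 19.1 in VEGF Trap. Rp1, a microtubule protein of the outer segment axoneme, ran from 1.04 to 3.20 CPM in 8 libraries and was at 8.87 CPM in VEGF Trap 1. Tulp1, needed for protein transport to the outer segment, ran from 6.76 CPM in VEGF Trap 2 to 18.0 CPM in Fc 1.

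The rod transcription factors were also highest in VEGF Trap 1. Nrl, which sets rod fate, stood at 14.6, 15.6 and 11.9 CPM in Fc, 12.8, 19.0 and 7.51 in ABTAA and 22.9, 5.85 and 6.66 in VEGF Trap. Nr2e3, which acts downstream of Nrl and represses cone genes, stood at 1.31, 1.70 and 1.60 CPM in Fc, 0.41, 1.39 and 1.10 in ABTAA and 4.81, 1.04 and 0.28 in VEGF Trap. For Nrl the other VEGF Trap libraries were the lowest of all, and for Nr2e3, VEGF Trap 3 was the lowest, followed by ABTAA 1. Exon sequence of Nr2e3 overlaps the gene Gm15507 on the same strand, so its values are uncertain. Crx, the homeodomain factor of rods and cones, had 93 counts in all and was highest in Fc 2 at 1.95 CPM.

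The genes of retinoid handling and of the matrix were a mixed group. Abca4, the flippase of outer segment discs, stood at 43.4, 39.5 and 54.8 CPM in Fc, 38.3, 47.5 and 41.5 in ABTAA and 53.6, 37.5 and 44.5 in VEGF Trap, close together in all groups. Rbp3, the retinoid-binding protein that photoreceptors secrete (chromosome 14, 33954003 to 33964216), stood at 1.12, 2.04 and 2.14 CPM in Fc, 0.93, 4.07 and 2.35 in ABTAA and 5.06, 0.35 and 0.14 in VEGF Trap. For Rbp3, VEGF Trap 3 rested on 1 count and VEGF Trap 2 on 5. Rdh12, a retinol dehydrogenase of the inner segment, ran from 0.77 to 2.16 CPM. The interphotoreceptor matrix gene Impg2 ran from 0.63 CPM in ABTAA 3 to 2.24 CPM in VEGF Trap 1, and Impg1 had 19 counts in all.

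Most cone genes had few counts. The 6 genes that did not enter the test were Opn1mw, Arr3, Pde6h, Cnga3, Cngb3 and Impg1, of which 5 belong to cones. Opn1sw, the short-wavelength opsin, was the most abundant cone gene after Gngt2, at 2.52, 4.67 and 1.98 CPM in Fc, 2.79, 2.58 and 2.35 in ABTAA and 4.48, 2.72 and 2.08 in VEGF Trap. An exon of Opn1sw overlaps the gene Calu on the other strand, and the strand setting of the counting is not given, so its counts may include reads of Calu. The medium-wavelength opsin Opn1mw had 15 counts in all and was at 0 in 4 libraries. Rod counts, which were not divided by length, exceeded cone counts in each pair of counterparts apart from the gamma subunits, where Gngt1 had 229 counts and Gngt2 5292. Over the 9 libraries the ratio of rod to cone counts was 14.1 for Gnat1 over Gnat2, 3.93 for Pde6b over Pde6c, 33.4 for Pde6g over Pde6h, 15.8 for Cnga1 over Cnga3, 42.2 for Cngb1 over Cngb3, 198.1 for Sag over Arr3 and 267.6 for Gnb1 over Gnb3. The ratios over Cnga3, Cngb3 and Arr3 rest on few cone counts, and the last on the widely expressed Gnb1. With counts divided by their common divisor, which is 2 for Pde6c and Pde6g and 3 for Gnb1, the ratio was 7.87 for Pde6b over Pde6c, 16.7 for Pde6g over Pde6h and 89.2 for Gnb1 over Gnb3. Among libraries with more than 3 counts of the cone gene, Gnat1 over Gnat2 ran from 5.75 in Fc 3 to 23.9 in VEGF Trap 1 and Pde6b over Pde6c from 1.81 in Fc 3 to 12.5 in VEGF Trap 1.

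Summed over 10 rod genes (the rod list without Gnb1 and Slc24a1), rod RNA was 73.8, 113.0 and 77.35 CPM in Fc, 78.9, 123.4 and 51.8 in ABTAA and 143.5, 41.2 and 45.75 in VEGF Trap. Summed over 9 cone genes (without Gngt2), the total was 6.35, 10.8 and 9.62 CPM in Fc, 6.82, 11.9 and 7.04 in ABTAA and 10.1, 5.504 and 4.575 in VEGF Trap. Of the 786 counts of these 9 genes, 284 were of Opn1sw and 240 of Gnb3, which bipolar cells also use. In ABTAA 2, Gnb3 alone was at 5.55 CPM. How much of the cone sum came from cones was not tested. The highest library was VEGF Trap 1 for the rod sum and ABTAA 2, followed by Fc 2, for the cone sum. Slc24a1 was left out of the rod sum after its values were seen. Cone genes made up 6.58% of rod plus cone counts in VEGF Trap 1 (95% exact Clopper-Pearson interval 5.497% to 7.81%, 122 cone and 1731 rod counts), the lowest share of the 9 libraries. The highest shares were 12.0% in ABTAA 3 (8.87% to 15.7%) and 11.8% in VEGF Trap 2 (9.45% to 14.5%). This order at the top depended on the genes counted, by alternatives chosen after seeing the data. With Slc24a1 among the rod genes the highest shares were 6.26% in ABTAA 2 and 6.23% in Fc 3, with VEGF Trap 2 at 5.06%. Without Opn1sw they were 8.99% in Fc 3 and 8.31% in ABTAA 3, with VEGF Trap 2 at 6.34%. In both alternatives VEGF Trap 1 had the lowest share, at 4.29% and 3.78%. Intervals leave out the spread between libraries and take each count as independent. Counts of Pde6g, Nrl and Pde6c share a divisor above 1, so counting error is larger than the intervals show. With counts divided by their common divisor, the share in VEGF Trap 1 was 8.12% (119 cone and 1346 rod counts). That was again the lowest, and above the interval given for it. The highest were then 13.4% in VEGF Trap 2 and 13.3% in ABTAA 3. By group the share was 9.29% in Fc, 8.99% in ABTAA and 8.11% in VEGF Trap, which differ by less than the spread between libraries.

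**Figure D2:**
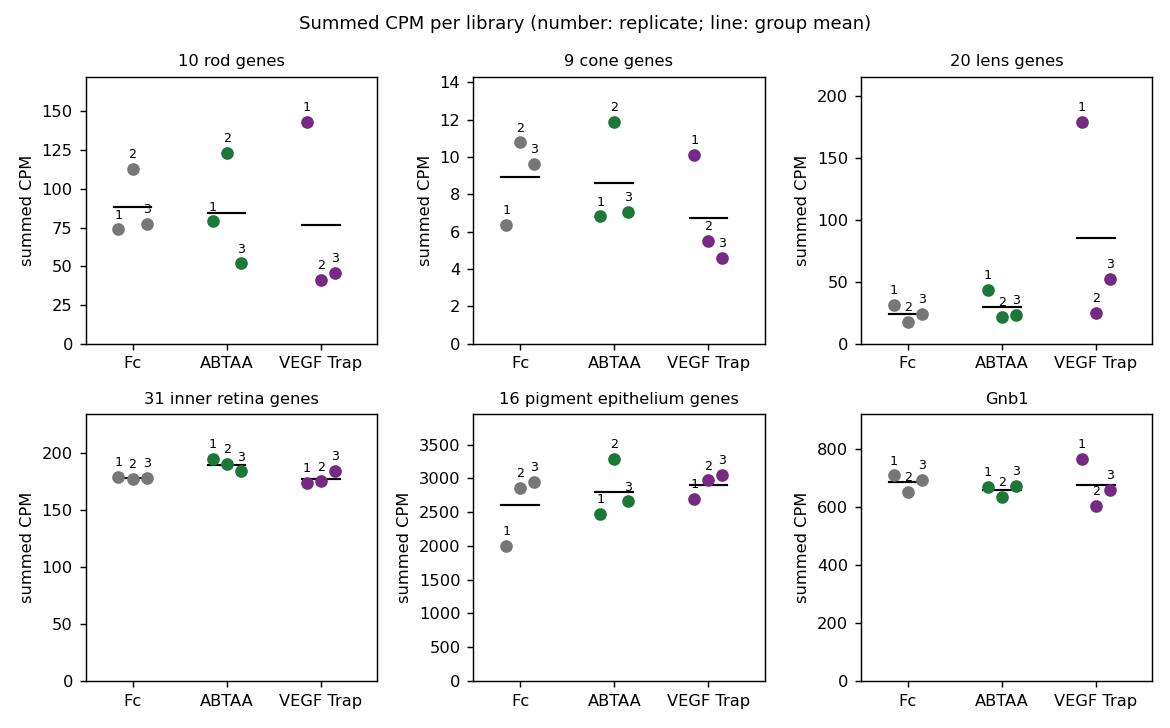
Each point is 1 library, numbered by replicate, with summed CPM on the vertical axis from 0 and a line at the group mean, for rod, cone, lens, inner retina and pigment epithelium gene lists and for Gnb1 alone. The rod and lens sums are highest in VEGF Trap 1, at 143.5 and 179.5 CPM (lens without Cryab). The inner retina sum stays between 173.1 and 194.5 CPM in all libraries, and its most abundant genes also have roles outside the retina.

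**Figure D3:**
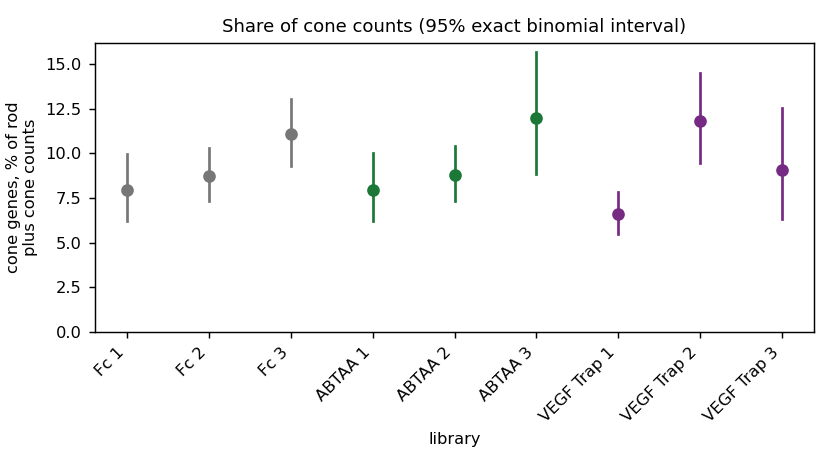
The percentage of cone genes among rod plus cone counts (vertical axis) is plotted for each library with its 95% exact binomial interval, which takes counts as independent. It runs from 6.58% in VEGF Trap 1 to 12.0% in ABTAA 3, and the 3 groups overlap.

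The excess in VEGF Trap 1 was uneven across the list. That library was singled out because earlier results of these data had shown it, so what follows is a description. It was the highest of the 9 libraries for 15 of the 30 tested genes, and for 14.6% of all tested genes. VEGF Trap 2 was the lowest for 14 of the 30, and for 6.65% of all tested genes. The ratio of VEGF Trap 1 to the median of the other 8 libraries had a median of 1.78 over the 30 genes and of 1.01 over all tested genes. It was at least 1.5 for 19 genes and at least 2 for 12, where 7.95% and 2.39% of all tested genes reached these ratios, and at least 3 for 8 genes, where 0.591% did. The 8 were Gngt1 (8.56), Prph2 (7.66), Pdc (4.47), Guca1b (4.29), Nr2e3 (4.00), Cnga1 (3.90), Rp1 (3.28) and Rbp3 (3.20). At the other end the ratio was 1.15 for Gnb1, 1.01 for Gngt2, 1.26 for Abca4, 1.23 for Rom1, 1.04 for Pde6a and 1.32 for Gnat1. Gnat2 (0.65) and Pde6c (0.59) were below 1, with 9 and 6 counts in VEGF Trap 1. Genes of the same complex could lie far apart, as Gngt1 and Gnat1 of rod transducin and Prph2 and Rom1 of the disc rim did.

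**Figure D4:**
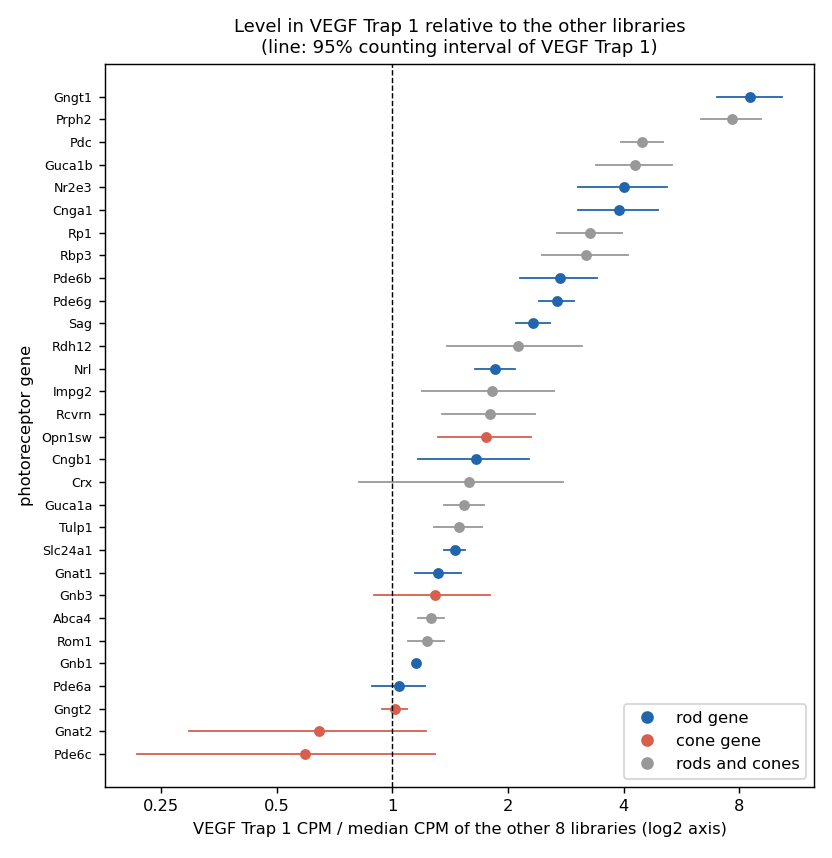
For each of the 30 tested genes, the point is the CPM of VEGF Trap 1 divided by the median CPM of the other 8 libraries on a log2 axis, and the line the 95% counting interval of VEGF Trap 1. The ratio runs from 0.59 for Pde6c to 8.56 for Gngt1, with Gnb1 and Gngt2 near 1. The interval is too narrow for Gnb1, Pde6g, Nrl, Pdc and Pde6c, whose counts share a divisor above 1.

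The comparison of ABTAA with Fc asks whether Tie2 activation was accompanied by a different amount of outer retina RNA. No photoreceptor gene passed the test. By edgeR (quasi-likelihood test, adjusted p under 0.05 over all genes), 0 of 30 genes were called, where 1.4% of all tested genes were called, and 0 were called by DESeq2 or limma-voom. At an unadjusted p under 0.05 there was 1 gene, Rom1, at -0.47 ± 0.20 on the log2 scale (SE; edgeR adjusted p = 0.256), and 16.9% of all genes reached that p. The estimate was above 0 for 10 genes and below 0 for 20, with a median of -0.11 against 0.00 over all tested genes. The median was -0.38 without ABTAA 2, the library with the most photoreceptor RNA in its group, and -0.03 without Fc 2. Prph2 (1.12 ± 0.74, adjusted p = 0.484) was the 1 gene whose ABTAA libraries all lay above the Fc libraries, where 11.7% of all genes did. Standard errors had a median of 0.56 over the 30 genes against 0.20 over all genes, so 95% intervals were wide. For Sag the interval ran from -1.42 to 0.55, for Pde6g from -0.56 to 1.71 and for Gnb1 from -0.28 to 0.17.

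For VEGF blockade the same question is put by VEGF Trap against Fc, where the estimates for rod genes depended on VEGF Trap 1. By edgeR 0 of 30 genes were called, where 1.02% of all tested genes were, and 0 were called by DESeq2 or limma-voom. At an unadjusted p under 0.05 there were 2, Prph2 at 2.26 ± 0.72 on the log2 scale (SE; edgeR adjusted p = 0.129) and Pdc with 1.28 ± 0.54 (adjusted p = 0.256), and 15.4% of all genes reached that p. DESeq2 gave no adjusted p for Prph2. Over the 30 genes 16 estimates were above 0 and 14 below, with a median of 0.05 against 0.00 over all genes. The libraries of the groups did not overlap for Gnat2 and Pde6c, both lower in VEGF Trap, where 10.5% of all genes were lower without overlap.

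Without VEGF Trap 1 the estimates moved down for most rod genes, and still none passed (0 called by edgeR, where 0.436% of all tested genes were). Of the 30 genes 25 were then below 0, with a median of -0.63 against -0.01 over all genes, and 7 reached an unadjusted p under 0.05, all lower, where 15.6% of all genes reached it in either direction. Sag stood at -1.51 ± 0.33 (adjusted p = 0.0573, edgeR) after -0.36 ± 0.46 with all 3 libraries. Nrl stood at -1.17 ± 0.32 (adjusted p = 0.097) after -0.23 ± 0.41, and Rbp3 at -2.67 ± 0.83 (adjusted p = 0.131) after 0.10 ± 0.84. Pde6g was at -1.20 ± 0.43 after 0.10 ± 0.53 and Gngt1 at -1.19 ± 0.79 after 0.90 ± 0.81. Prph2 stayed above 0, at 0.84 ± 0.69, as did Pdc at 0.35 ± 0.51. Gnb1 (-0.11 ± 0.10), Gngt2 (-0.03 ± 0.16), Abca4 (-0.16 ± 0.17) and Slc24a1 (-0.11 ± 0.20) stayed near 0. In 12 of the 30 genes the 2 remaining VEGF Trap libraries were both below every Fc library, where 17.7% of all tested genes were. This reading rests on 2 libraries, whose spread the fit shares with the other groups. Without VEGF Trap 2 instead, 22 of the 30 estimates were above 0, and Prph2 (2.76 ± 0.61, adjusted p = 0.0631, edgeR) and Pdc (1.76 ± 0.41, adjusted p = 0.0691) came about as close to the threshold from above 0 as Sag did from below. The lens sum was highest in the same library. Without Cryab, the 20 lens genes summed to 179.5 CPM in VEGF Trap 1 and to 17.2 to 52.4 CPM in the other 8. Crygc (50.7 CPM), Crygb (38.0) and Cryaa (24.6) made up much of the sum in VEGF Trap 1. That library was the highest for 4 of the 9 tested lens genes. Cryab was highest in Fc 2, at 285.2 CPM, against 270.9 CPM in VEGF Trap 1. The part of lens or outer retina carried over at dissection in these differences was not tested.

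**Figure D5:**
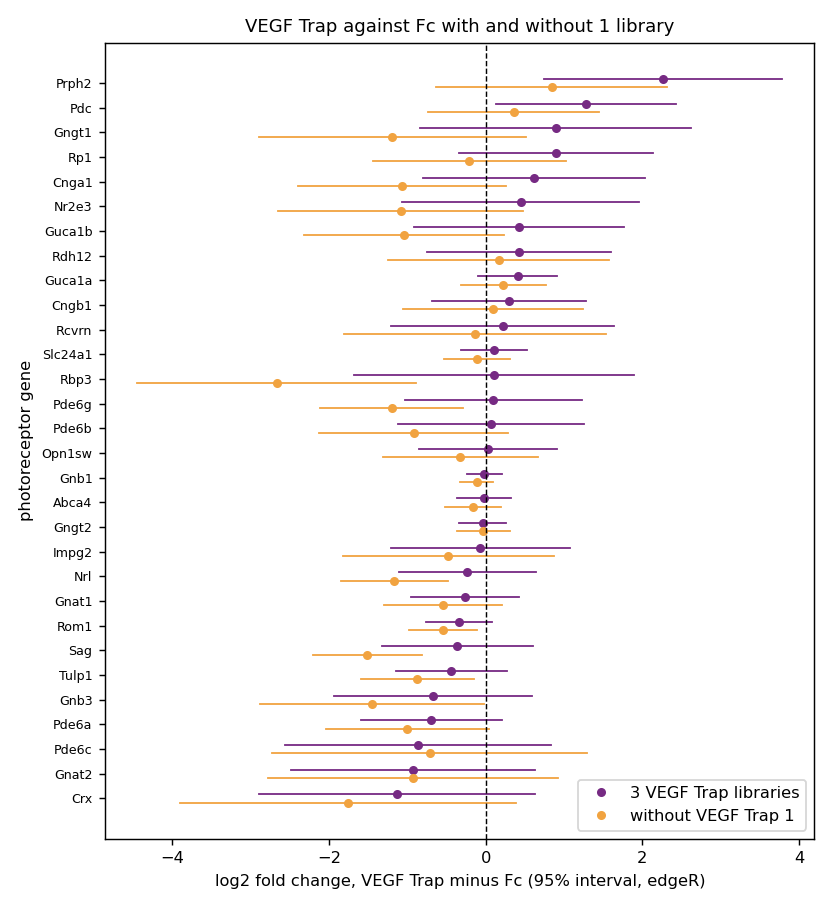
Points are log2 fold changes of VEGF Trap minus Fc for the 30 tested genes with 95% intervals from edgeR, with all 3 VEGF Trap libraries and without VEGF Trap 1. Without that library 25 of 30 estimates are below 0, and none passed the test in either fit.

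Between ABTAA and VEGF Trap, 0 of 30 genes were called by edgeR, where 0% of all tested genes were, and 0 by DESeq2 or limma-voom, and 0 of the 30 had an unadjusted p under 0.05. The lowest adjusted p was 0.962. No gene had groups that did not overlap, where 5.14% of all genes were higher and 4.74% lower in ABTAA without overlap. The median log2 difference was -0.08 with all libraries. Without VEGF Trap 1 it was 0.32, and 6 genes reached an unadjusted p under 0.05, all higher in ABTAA, where 4.14% of all genes reached it and 0% were called. Of these, Pde6g stood at 1.77 ± 0.43 (adjusted p = 0.998, edgeR). In 7 of the 30 genes the ABTAA libraries were then all above both remaining VEGF Trap libraries, where 9.29% of all tested genes were. This comparison and the others share groups, so their values for a gene are not independent. With all libraries the difference was -0.08 ± 0.47 for Sag, 0.16 ± 0.42 for Nrl and -1.06 ± 0.54 for Pdc. Without VEGF Trap 1 it was 1.08 ± 0.33 for Sag, with its sign turned, 1.09 ± 0.32 for Nrl and -0.13 ± 0.51 for Pdc, each with an adjusted p of 0.998 by edgeR.

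Other genes of phototransduction, the outer segment and the photoreceptor synapse, from a list of 44 genes outside the set, gave 0 calls among 32 tested genes in both comparisons with Fc by edgeR, DESeq2 and limma-voom, and 0 at an unadjusted p under 0.05 by edgeR. Their median log2 fold change was -0.07 in ABTAA and 0.19 in VEGF Trap, and -0.18 in VEGF Trap without VEGF Trap 1. VEGF Trap 1 was the highest library for 14 of the 32. The 4 most abundant genes of this list, Unc119, Dhrs3, Stx3 and Rpgrip1, stayed between 43.5 and 89.6 CPM, and the first 3 are also made outside the retina. Among photoreceptor transcription factors outside the set, 0 of 9 tested genes were called by edgeR in either comparison with Fc, with 2 at an unadjusted p under 0.05 in each, and DESeq2 called 1, Prdm1, lower in VEGF Trap. By edgeR, 16.9% (ABTAA) and 15.4% (VEGF Trap) of all tested genes reached that unadjusted p. Otx2, which pigment epithelium also expresses, was at 525.4 to 939.4 CPM.

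The summed markers of the inner retina varied little between libraries. The 31 bipolar, amacrine, horizontal and ganglion cell genes summed to 178.5, 176.9 and 178.0 CPM in Fc, 194.5, 190.3 and 183.5 in ABTAA and 173.1, 174.8 and 183.7 in VEGF Trap. Of the 31, 12 entered the test, and 0 were called in either comparison with Fc by edgeR, DESeq2 or limma-voom, with 3 (ABTAA) and 2 (VEGF Trap) at an unadjusted p under 0.05 by edgeR. That p was reached by 16.9% (ABTAA) and 15.4% (VEGF Trap) of all tested genes. The genes Prkca, Rbpms, Slc6a9 and Tfap2b, which also have roles outside the retina, were the most abundant. Prkca was at 30.3 to 50.3 CPM and Rbpms at 28.8 to 48.9 CPM, so the sum weighs such genes most. How much of it came from inner retina was not tested. The bipolar gene Pcp2 was highest in VEGF Trap 1 and ABTAA 2, at 9.12 and 8.63 CPM, and ran from 1.86 to 5.601 CPM in the other 7 libraries. The 14 skeletal muscle genes summed to 161.9 to 236.9 CPM in Fc, 303.8 to 625.0 in ABTAA and 291.4 to 489.1 in VEGF Trap, with ABTAA 2 the highest. ABTAA 2 was also the highest library of its group for the rod sum, while VEGF Trap 1, highest of all for the rod sum, was in the middle of its group for muscle at 351.4 CPM. The part of muscle content in the photoreceptor values was not tested.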

How the data were processed

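RNA from 9 laser-captured samples was sequenced with the LEXOGEN QuantSeq kit, which reads the 3 prime ends of transcripts, per the labels. The authors deposited raw counts for each gene symbol, 1 table a library. The submitters' processing notes name Bowtie2, edgeR and mm10, without versions. Which counter and annotation were used, whether strand was used, and how multiply mapped reads were handled is not stated in the labels or files. Sample titles gave the groups, although the Fc tables carry headings of knockout controls.

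After filterByExpr and TMM scaling, counts were tested by the quasi-likelihood F test of edgeR 4.0.16 (R 4.3.3), all 9 libraries in 1 model with 6 residual degrees of freedom, and p-values were adjusted by Benjamini-Hochberg over 14054 genes within each comparison. The standard error was taken as the estimate over the root of its F value. The scripts were tested on simulated data. Alternatives were DESeq2 1.42.0, limma-voom (limma 3.58.1), RLE scaling, library totals, no filter, 10 counts in 6 libraries, only the compared groups, a replicate block, counts divided by their common divisor, and the omission of each library. Members and lists were chosen with earlier results of these data known. Values are printed for the 12 most abundant genes, rod and cone counterparts and any called gene, and for others chosen after their values were seen. The last section gives 9 of the 10 genes with the largest ratio in VEGF Trap 1, and the one with the third largest ratio is not reported here. Within groups, library pairs differed by more than sampling noise (chi-square over its degrees of freedom 8.5 to 20.6). That value also rises where counts share a divisor above 1, as in 2188 of the 14054 tested genes. It cannot tell biological from technical replicates. Each library was kept as a replicate.

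Coordinates come from GENCODE M21 (GRCm38, also called mm10). Transcript ends of 200 bases were compared by BLAST+ 2.17.0 with all transcripts for copies of at least 100 bases at 95% identity. Nr2e3 had one in the pseudogene Gm18994 and Opn1sw in Calu. Exon sequence of Nr2e3 also overlaps Gm15507 on the same strand, so its counts may include reads of Gm15507. Exons of Gngt2 and Pde6h overlap Abi3 and Arhgdib on the other strand, so these counts are uncertain.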

Additional observations from a re-analysis of the deposited data

How the results depend on the processing

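No photoreceptor gene was called in 53 of 54 counts, over 18 alternatives in each of 3 comparisons. The exception was the fit without a filter, where 2 genes were called higher in VEGF Trap against Fc, Prph2 (log2 2.26, adjusted p = 0.00326, edgeR) and Pdc (1.28, adjusted p = 0.0132). The share of all genes called in that fit is not given here, so the 2 calls cannot be set against it. Prph2 and Pdc were both highest in VEGF Trap 1, at 10.4 and 20.7 CPM. In VEGF Trap 2, Prph2 lay among the Fc libraries at 0.98 CPM and Pdc below all of them at 2.65 CPM. Over the alternatives the lowest adjusted p in VEGF Trap against Fc ran from 0.00326 to 0.343. The median log2 fold change in VEGF Trap against Fc turned from 0.05 to -0.63 without VEGF Trap 1, to -0.41 with limma-voom and quality weights, to -0.06 without Fc 1 and to -0.035 with library totals, and was 0.14 without VEGF Trap 2. With the replicate number as a block, 0 genes were called in each comparison, with medians of -0.13 (ABTAA against Fc), -0.03 (VEGF Trap against Fc) and -0.06 (ABTAA against VEGF Trap). Deviations of libraries with the same number correlated at 0.01 to 0.11, and those of libraries with different numbers at -0.092 to 0.037. These values are low and do not settle whether the numbers pair libraries, so the block was kept as an alternative. For the 12 most abundant genes, none of 648 values crossed the threshold. These 12 do not include Prph2 or Pdc. Changes of sign without a call were not counted, such as Pde6g in VEGF Trap against Fc, at 0.10 with all libraries and -1.20 without VEGF Trap 1. The summed CPM of the 36 genes (1020.0 in Fc, 970.3 in ABTAA and 1007 in VEGF Trap) was 1049 in Fc with library totals. Without Gnb1, Gngt2 and Abca4 it was 231.5, 215.1 and 230.1. With counts divided by their common divisor it was 543.5, 508.2 and 535.3, since all counts of Gnb1 are multiples of 3. Without single libraries it ran from 1013 to 1024 in Fc, 951.2 to 984 in ABTAA and 890.5 to 1087 in VEGF Trap. Counts of 5 of the 36 genes share a divisor above 1 (Gnb1, Pde6g, Nrl, Pdc and Pde6c), so counting error is larger there than the counts show. Depth limits the cone genes most, with 786 counts for 9 genes in all libraries together.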

Other observations

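Of genes outside the set with at least 10 CPM in VEGF Trap 1, 9 of the 10 with the largest ratio of that library to the highest of the other 8 are given here, and they included several lens and retina genes. The lens crystallins Crygc (50.7 CPM in VEGF Trap 1 and at most 6.10 CPM in the others), Cryaa (24.6 and 3.74) and Crygb (38.0 and 14.4) had ratios of 8.32, 6.58 and 2.63. Hsf4, the heat shock factor of lens development, was at 10.9 CPM and at most 6.45 CPM, and Pax6, a transcription factor of lens, retina and other eye tissues, at 14.9 CPM and at most 8.22 CPM. The host gene of the neuronal microRNA 124, Mir124a-1hg, was at 12.8 CPM and at most 4.66 CPM. Impdh1, an enzyme of guanine nucleotide synthesis that photoreceptors express strongly, was at 27.4 CPM and at most 16.1 CPM. Cdkl3 and Cdca2 had ratios of 1.78 and 1.61. These ratios are a description of 1 library and carry no test.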
